A study of Mus musculus with 7 samples.

Results

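Transcripts of 10 lysosomal genes were described in the liver of old mice: the cathepsins Ctsa, Ctsb, Ctsc, Ctsd, Ctsh, Ctsl, Ctss and Ctsz and the lysosome-associated membrane proteins Lamp1 and Lamp2. They were taken as every probe set, outside the array's own controls, whose platform annotation names a single gene and names one of these. All 10 genes were on the array, with 16 probe sets, out of 8251 genes and 10833 probe sets with a single gene name. Liver RNA was measured on 7 mouse U74Av2 arrays, a 1-colour Affymetrix design in which each probe set gives 1 linear signal intensity per array. The animals formed 1 group: phenotypically normal female mice, of genotype +/+ or +/df by the source name, fed ad libitum and killed at 24 to 26 months of age. The description field instead names the df/df Ames dwarf genotype, and the group was kept as the titles and source names give it. With 1 group no comparison of conditions was possible, so the data give the level of each transcript in this liver and its spread between arrays. Replicates carry the numbers in the titles, which are 1, 2, 3, 4, 6, 7 and 8. No label states that these were separate animals, so the spread may be partly technical.

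Lysosomes are acidic compartments in which material from autophagy and endocytosis is broken down. Cathepsins are their proteases: most are papain-like cysteine proteases, Ctsd is an aspartic protease and Ctsa a serine carboxypeptidase. Lamp1 and Lamp2 are heavily glycosylated proteins of the lysosomal membrane. Many lysosomal genes carry a motif around the letters CACGTG near their start, which transcription factors of the Tfeb family bind in human and mouse cells. In liver, hepatocytes hold most of the tissue mass and resident macrophages, the Kupffer cells, are rich in lysosomes. In antigen-presenting cells Ctss trims the invariant chain of MHC class II.

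The start regions of the genes are shown first because they differ in that motif. RefSeq windows of GRCm38.p6, from 250 bases before to 50 bases after an annotated start, were available for 8 of the 10 genes, as 9 windows. Ctsb and Ctsh had no window in the table. The letters CACGTG, which read the same on both strands, lay in the windows of 4 genes: Ctsa, Ctsd, Ctsl and Lamp1. Of all 32851 windows of this length, 7.15% held them. Capitals mark CACGTG in the 3 windows below, those holding it more than once, each printed on its gene's strand.
Ctsa, chr2:164833523-164833822, plus strand: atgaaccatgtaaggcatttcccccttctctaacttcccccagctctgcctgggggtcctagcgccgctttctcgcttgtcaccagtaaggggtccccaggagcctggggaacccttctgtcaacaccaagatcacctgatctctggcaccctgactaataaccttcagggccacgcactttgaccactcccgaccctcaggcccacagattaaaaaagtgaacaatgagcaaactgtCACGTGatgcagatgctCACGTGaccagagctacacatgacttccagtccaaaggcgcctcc
Ctsd, chr7:142387778-142388077, minus strand: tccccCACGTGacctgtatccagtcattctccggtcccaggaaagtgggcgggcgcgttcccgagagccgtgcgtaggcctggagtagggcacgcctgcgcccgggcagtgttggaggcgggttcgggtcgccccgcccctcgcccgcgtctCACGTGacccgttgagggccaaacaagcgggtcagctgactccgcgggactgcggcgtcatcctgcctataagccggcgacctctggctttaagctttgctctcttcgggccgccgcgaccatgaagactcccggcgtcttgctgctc
Lamp1, chr8:13158911-13159210, plus strand: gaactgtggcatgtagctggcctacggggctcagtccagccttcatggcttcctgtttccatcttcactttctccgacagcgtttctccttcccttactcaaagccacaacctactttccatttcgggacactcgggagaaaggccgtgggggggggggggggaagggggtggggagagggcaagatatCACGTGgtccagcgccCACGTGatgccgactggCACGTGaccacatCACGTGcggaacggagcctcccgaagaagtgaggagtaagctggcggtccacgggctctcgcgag

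Lamp1 had 4 copies, beginning at positions -61, -45, -28 and -15 from the start, and 8 of the 32851 windows held 4 or more. Ctsa had 2 copies, at -12 and 6, and Ctsd had 2, at -245 and -98. Windows with 2 or more made up 0.594% of the table. Both copies in Ctsa and the copy at -98 in Ctsd were part of the longer TCACGTGA, which also reads the same on both strands and was in 0.974% of windows. Ctsl had a single copy at -236. Ctsc, Ctss, Ctsz, Lamp2 and the other annotated start of Ctsa had none in these windows. Such matches describe the letters and do not show binding.

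All 10 genes had signals above 200.1, the minimum mean for testing, on every array, and the highest array was 1.16 to 1.74 times the lowest. Signals are given after scaling every array to a common trimmed mean. Probe sets bind with different strength, so the signals of different genes are not set against each other here. The probe set with the highest mean represents each gene.

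**Figure D1:**
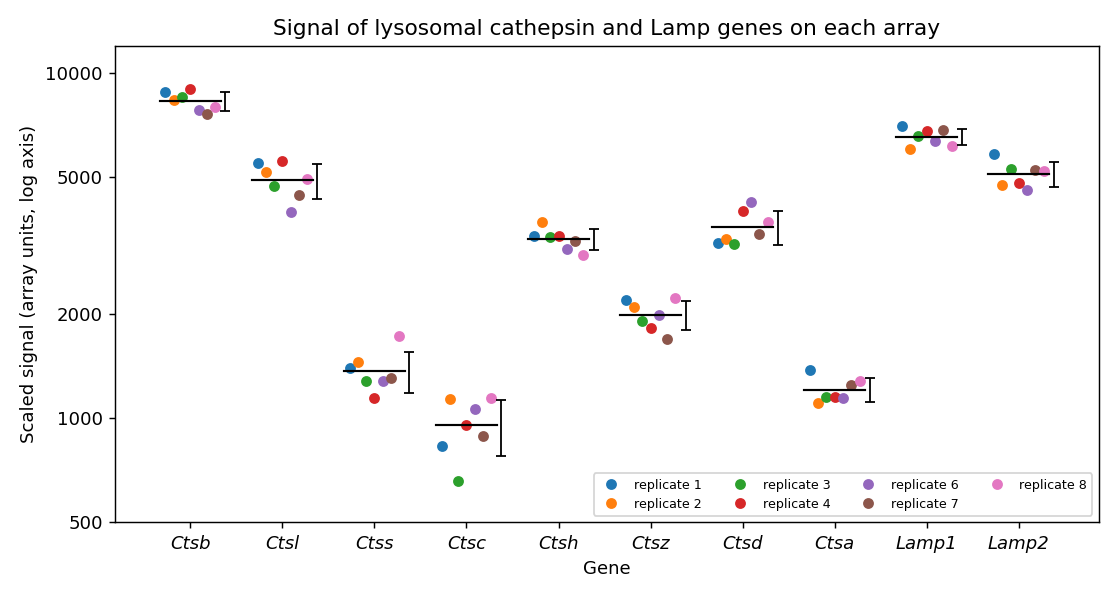
Scaled signal (array units, log axis) of the 10 genes on each of 7 arrays. Points are arrays, coloured by replicate, horizontal lines are means and bars beside them are ± 1 SD (n = 7). Ctsc has the widest relative range, 658 to 1145, and Lamp1 the narrowest, 6042 to 7030; heights of different genes are not comparable.

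Among the cysteine cathepsins, Ctsb (NCBI gene 13030), an endopeptidase that also trims peptides from their end, had signals of 8838, 8340, 8523, 8995, 7806, 7640 and 7969 on replicates 1, 2, 3, 4, 6, 7 and 8. Its mean was 8302 ± 518 (SD, n = 7), and the 4 highest values were those of replicates 1 to 4. Ctsl (13039), a major endopeptidase of the lysosome, had 5485, 5173, 4728, 5563, 3952, 4449 and 4929 in the same order. It averaged 4897 ± 576, was highest on replicate 4, as Ctsb was, and lowest on replicate 6.

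Ctss (13040), the cathepsin of antigen-presenting cells, had 1397, 1456, 1286, 1143, 1282, 1312 and 1734. Replicate 8 stood highest and replicate 4 lowest around a mean of 1373 ± 187. Without replicate 8 the SD of its log2 signal was 0.12, against 0.19 with it. Ctsz (64138), a carboxypeptidase, had 2198, 2107, 1912, 1829, 1997, 1697 and 2236. It was also highest on replicate 8, but lowest on replicate 7, with a mean of 1996 ± 198.

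Ctsc (13032), a dipeptidyl peptidase that activates serine proteases of immune cells, had 829.8, 1137, 658, 958, 1068, 889.7 and 1145. Its mean was 955 ± 178, and replicate 3 was the lowest, with the next value 829.8 on replicate 1. Ctsh (13036), an aminopeptidase, had 3374, 3705, 3353, 3385, 3101, 3275 and 2983. It varied little around 3311 ± 231, with replicate 2 the highest and replicate 8 the lowest.

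Of the other proteases, Ctsd (13033) had 3228, 3312, 3207, 3992, 4223, 3421 and 3713, with a mean of 3585 ± 400. Replicates 6 and 4 were its highest. Ctsa (19025), which also protects the enzymes beta-galactosidase and neuraminidase in a complex, had 1383, 1108, 1157, 1154, 1148, 1249 and 1280. Replicate 1 was highest around 1211 ± 97.1.

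Lamp1 (16783) had 7030, 6042, 6589, 6789, 6361, 6830 and 6168, a mean of 6544 ± 367 and a log2 SD of 0.08. That SD was the lowest of the 10 as scaled here, while Ctsb was lower with median centring, with quantile normalization, without replicate 4, without replicate 7 and with the array set as a term. Lamp2 (16784), of which one isoform serves in chaperone-mediated autophagy, had 5827, 4747, 5266, 4814, 4597, 5239 and 5194. Its mean was 5098 ± 417 and its highest value, like those of Lamp1 and Ctsa, was on replicate 1.

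The spread between arrays was small for most of these genes. The SD of the log2 signal ranged from 0.08 for Lamp1 to 0.29 for Ctsc, with a median of 0.13, against 0.18 over the 4481 genes tested. It lay below that overall median in 8 genes, all but Ctsc and Ctss. Brighter genes varied less on these arrays, so each SD was also set against the SD expected at the gene's level, a curve from the limma fit. In 6 of the 10 genes the SD was under the expected one, which held for 50.9% of all tested genes, so the share is near the background. The ratio of measured to expected SD had a median of 0.875 in the 10 genes, against 0.991 over all tested genes. Lamp1 had the lowest ratio, 0.590, followed by Ctsb and Ctsh at 0.673 each. Ctsc had the highest, 1.73, with 80.7% of tested genes having a smaller or equal SD. Without replicate 3, its lowest array, the log2 SD of Ctsc was 0.19, against 0.29 with all arrays.

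None of the 10 genes passed the test for more spread than expected at its level. That test set each gene's variance against the limma prior by an upper-tail F test with Benjamini-Hochberg adjustment over all tested genes. It called 0 of 4481 genes (0% of the background) at an adjusted p under 0.05. At an unadjusted p under 0.05 it gave 301 genes (6.72% of the background) and 0 of the 10. The smallest unadjusted p among them was 0.11, for Ctsc, with an adjusted p of 0.947 in the limma-based test. On simulated data the SD of 200 genes was raised, and the test found 0 of them at 2 times and 0 at 3 times the SD. At 5 times it found 97 of 200. The multiples apply to each simulated gene's own SD, while the ratio of Ctsc sets a measured SD against the expected one. These scales differ, but with a test that misses such excesses, not passing does not show ordinary spread. Averaging its 3 probe sets gave a log2 SD of 0.13 for Ctsc. That average takes in a set under the floor on all 7 arrays and another at 56.1 to 73.4. The constant value of the floored set lowers the SD by itself.

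**Figure D2:**
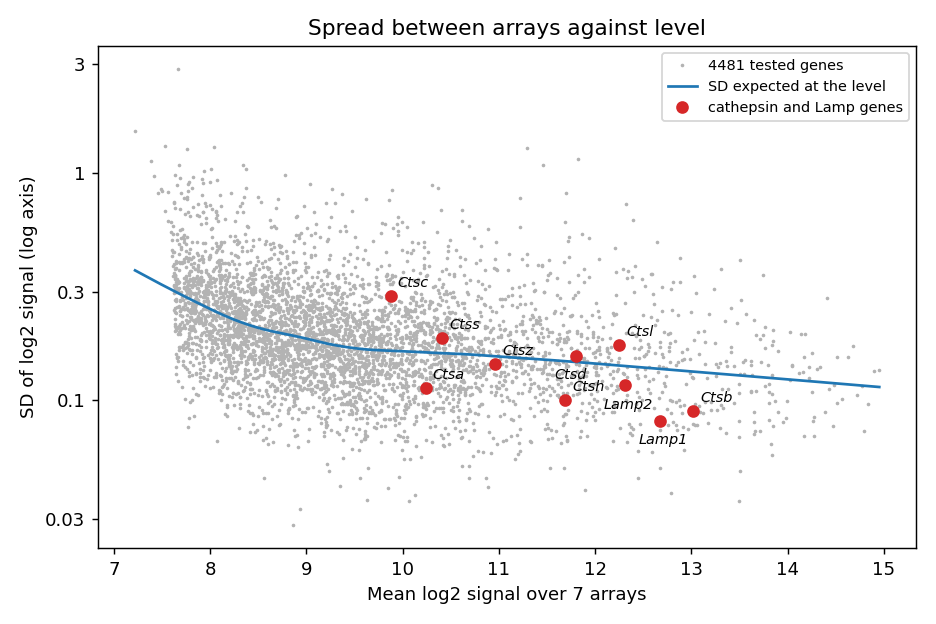
SD of log2 signal over 7 arrays (log axis) against mean log2 signal. Grey points are the 4481 tested genes, the line is the SD expected at each level and red points are the 10 genes. Ctsc lies above the line, at 0.29, and Lamp1, Ctsb and Ctsh lie below it, at 0.08, 0.09 and 0.10.

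For 3 genes with several probe sets, the sets could be set beside each other. Lamp2 had 2 bright ones. The set used above had its highest signal on replicate 1, while the other had 4481, 4284, 6044, 3939, 4683, 4711 and 5005, with its highest on replicate 3. Across arrays they had Pearson's r = 0.308 (exact permutation p = 0.506, n = 7) and Spearman's rho = 0.393 (exact p = 0.396). Dropping the 2 arrays farthest from the median gave r = 0.815, and r was 0.345 with array-set means removed. Ctsb had 4 probe sets. Besides the bright set used above, another had 384 ± 42.1 and a dimmer one 229.8 ± 47.3. The last, whose suffix _f_at marks a set that can read related sequences, stayed between 26.1 and 100.4, with 2 arrays under the floor. The bright set of Ctsb had r = 0.225 with the set at 384 (exact permutation p = 0.626) and r = -0.09 with the set at 229.8 (exact p = 0.844), with rho of 0.25 and -0.179 (exact p = 0.595 and 0.713). Without the 2 farthest arrays those r were 0.702 and 0.566, and with array-set means removed -0.09 and -0.07. With the _f_at set the bright one had r = 0.676 (exact permutation p = 0.104) and rho = 0.721 (exact p = 0.078), with r = 0.283 and 0.254 under the same changes. The sets at 384 and 229.8 had r = 0.694 with each other (exact permutation p = 0.086, rho = 0.714, exact p = 0.088), with 0.662 and 0.745 under those changes. Against the _f_at set their r was negative, at -0.384 and -0.628 (exact permutation p = 0.396 and 0.135, rho = -0.234 and -0.685, exact p = 0.613 and 0.102). Ctsc had 2 dim sets beside the one used. One of them was under the floor of 50.04 on all 7 arrays, and the other lay between 56.1 and 73.4. The r of that other set with the one used was 0.522 (exact permutation p = 0.23) with rho = 0.464 (exact p = 0.302), and it was -0.165 without the 2 farthest arrays and 0.558 with array-set means removed. In all 8 pairs of sets were compared, and the smallest p adjusted over them was 0.36.

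The genes did not move as 1 block across arrays. Of the 45 pairs, 24 had a positive r, and the median was 0.05, against 0.00035 over all pairs of tested genes. An r of at least 0.8 was reached by 2 pairs (4.44%), where 1.69% of all 10037440 pairs of tested genes reached it. The pair Ctsa with Lamp2 had r = 0.863 (exact permutation p = 0.017, n = 7) and rho = 0.821 (exact p = 0.034). Both genes were highest on replicate 1, and dropping the 2 farthest arrays gave r = 0.642, against 0.921 with array-set means removed. The pair Ctsb with Ctsl had r = 0.825 (exact permutation p = 0.023) and rho = 0.857 (exact p = 0.024). Its r was 0.769 without the 2 farthest arrays and 0.556 with array-set means removed.

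After Benjamini-Hochberg adjustment over all tested genes, 0 of 45 pairs passed in the exact permutation test, with adjusted p of 0.845 for Ctsa with Lamp2 and 0.654 for Ctsb with Ctsl. The exact test has too few pairings for a pair alone to pass over all tested genes, so this does not show the lack of a relation. Adjustment over the 45 pairs also gave 0, and 2 pairs had an unadjusted p under 0.05. That last count was 5 with median centring, 1 with quantile normalization and 0 with averaged probe sets. It was 4 without replicate 2, 3 without replicate 3, 7 or 8, and 1 without replicate 1 or 4. Averaging the probe sets of each gene gave r = 0.422 for Ctsa with Lamp2 and r = 0.561 for Ctsb with Ctsl. The lowest r was -0.679, between Ctsd and Lamp2 (exact permutation p = 0.092, rho = -0.75, exact p = 0.066, adjusted p over all genes 0.874), and it was -0.228 without the 2 farthest arrays and -0.683 with array-set means removed. Lamp1 and Lamp2 had r = 0.6 (exact p = 0.154, rho = 0.679, exact p = 0.11, adjusted p 0.992), 0.786 without the 2 farthest arrays and 0.583 with array-set means removed. Among the 4 genes whose windows hold CACGTG, the 6 values of r ran from -0.368, for Ctsd with Ctsl, to 0.531, for Ctsa with Lamp1.

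**Figure D3:**
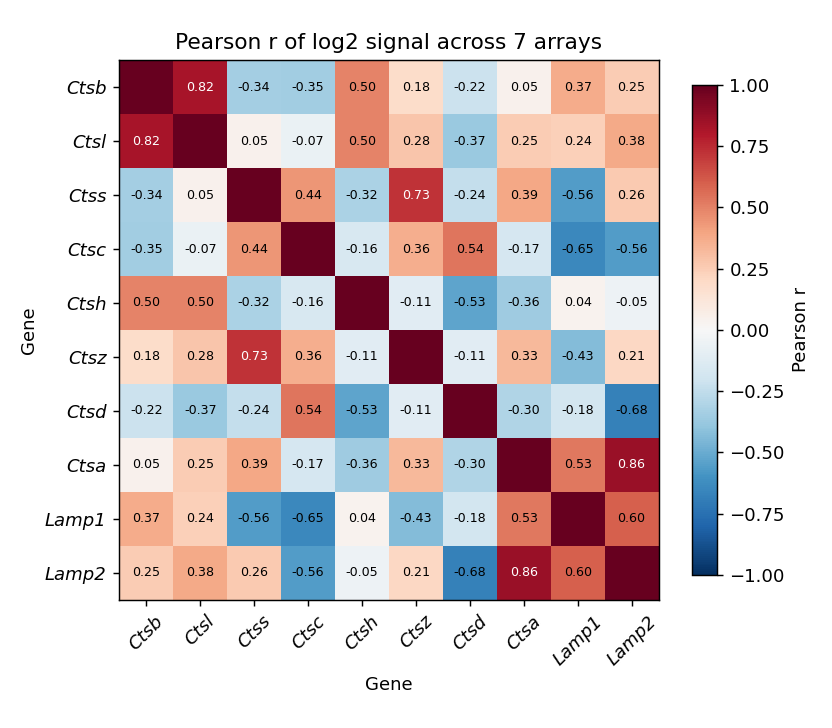
Pearson's r of log2 signal across 7 arrays for each pair of the 10 genes, from -1 (blue) to 1 (red). Ctsa with Lamp2 (0.86) and Ctsb with Ctsl (0.82) are the highest values, Ctsd with Lamp2 (-0.68) is the lowest, and red and blue cells are mixed throughout.

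The tested genes outside the 10 with the highest mean r with them were Nit1 (0.374), Plac8 (0.373), Mettl17 (0.369), Psme1 (0.369) and Etfb (0.367), each over 7 arrays. All 5 had a negative r with Ctsd. Nit1 had r = 0.837 with Ctsl and -0.394 with Ctsd, and Etfb had 0.891 with Ctsl and -0.25 with Ctsd. These values rank 4471 genes on few arrays and are a description only.

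Hepatocyte markers and part of the macrophage markers passed the filter for testing. Of those on the array, 3 of 6 endothelial, 4 of 6 stellate and 4 of 8 T and B cell markers passed. Cholangiocyte markers had 0 of 3. All 10 hepatocyte markers were tested, and their summed signal ran from 177285 on replicate 6 to 218012 on replicate 3. Of 16 macrophage markers on the array 10 passed the filter, among them Clec4f, the Kupffer cell lectin, at 1572 ± 198, and the complement genes C1qa and C1qc at 1484 ± 194 and 1419 ± 203. The most variable were Mpeg1 at 1132 ± 281 and Csf1r, the receptor that macrophages need for growth, at 867 ± 199.9, with log2 SDs of 0.34 and 0.33. Markers under the filter included Adgre1 at 156 ± 44.1 and Itgam and Marco, at 22.8 and 18.7, under the floor on average. The summed macrophage signal ran from 8265 on replicate 3 to 10561 on replicate 8, and that of the 7 MHC class II genes from 3425 on replicate 4 to 10071 on replicate 8. Of these, Cd74, the invariant chain, had 3536 ± 1083, H2-Aa 1093 ± 408 and H2-Eb1 962 ± 345. The largest log2 SDs were those of H2-Ab1 (0.90, at 602 ± 300.4) and H2-DMb1 (0.74, at 271 ± 107). In bulk tissue, fewer cells of a type and less RNA per cell cannot be told apart.

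Ctss correlated with the MHC class II score across arrays at an unadjusted p under 0.05, but not after adjustment. Without replicate 2, 3 or 4 its exact permutation p was 0.064, 0.053 and 0.093. The class II score, the mean log2 deviation over 6 tested genes, was 0.23, 0.49, -0.48, -1.24, 0.17, 0.16 and 0.67 on replicates 1, 2, 3, 4, 6, 7 and 8. Its lowest and highest arrays, replicates 4 and 8, were also those of Ctss. The correlation was r = 0.835 (exact permutation p = 0.021, n = 7) and rho = 0.893 (exact p = 0.012). Without the 2 arrays whose score lay farthest from the median it was 0.95, and it was 0.814 with array-set means removed. Over all 4481 genes, 5.27% had an unadjusted p under 0.05 with this score, and 1 of the 10 genes did, so the count is near that share. Of the 10 genes, 5 had a positive r with this score. The median r was -0.025 and the lowest was -0.6, for Ctsb. Adjusted over all tested genes the exact permutation p for Ctss was 0.857, and 0 genes passed (0%). With 5040 pairings 1 gene alone could not pass, so this does not show the lack of a relation. Ctsz had r = 0.576 with the same score (exact p = 0.177, adjusted p 0.95) and rho = 0.857 (exact p = 0.024), with r = 0.633 without the 2 farthest arrays and 0.721 with array-set means removed. Ctss and Ctsz had r = 0.726 with each other (exact permutation p = 0.059, adjusted p 0.98) and rho = 0.714 (exact p = 0.088), with 0.619 and 0.817 under the same 2 changes.

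With the macrophage score Ctss had r = 0.652 (exact permutation p = 0.103, adjusted p 0.837) and rho = 0.536 (exact p = 0.236). Its r was 0.447 without the 2 farthest arrays and 0.815 with array-set means removed. Ctsb ran the other way, with r = -0.819 (exact permutation p = 0.033, adjusted p over all genes 0.78) and rho = -0.786 (exact p = 0.048). That r was -0.739 without the 2 farthest arrays, but -0.09 with array-set means removed. Replicates 1 to 4 all had a negative macrophage score and replicates 6 to 8 a positive one. Score and array set therefore cannot be told apart over all arrays. The r of -0.09 describes the relation inside the sets when they are pooled, and it was weak there. The relation in each set alone was not tested. The r of Ctsb with this score was -0.446 with median centring and -0.57 with quantile normalization. Of all tested genes 6.36% had an unadjusted p under 0.05 with the macrophage score and 0 (0%) passed after adjustment, under the same limit of 5040 pairings. Over the 10 genes and both scores, 20 relations were computed, and the other 8 genes had r between -0.625 and 0.575 with the macrophage score, none with an unadjusted p under 0.05.

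**Figure D4:**
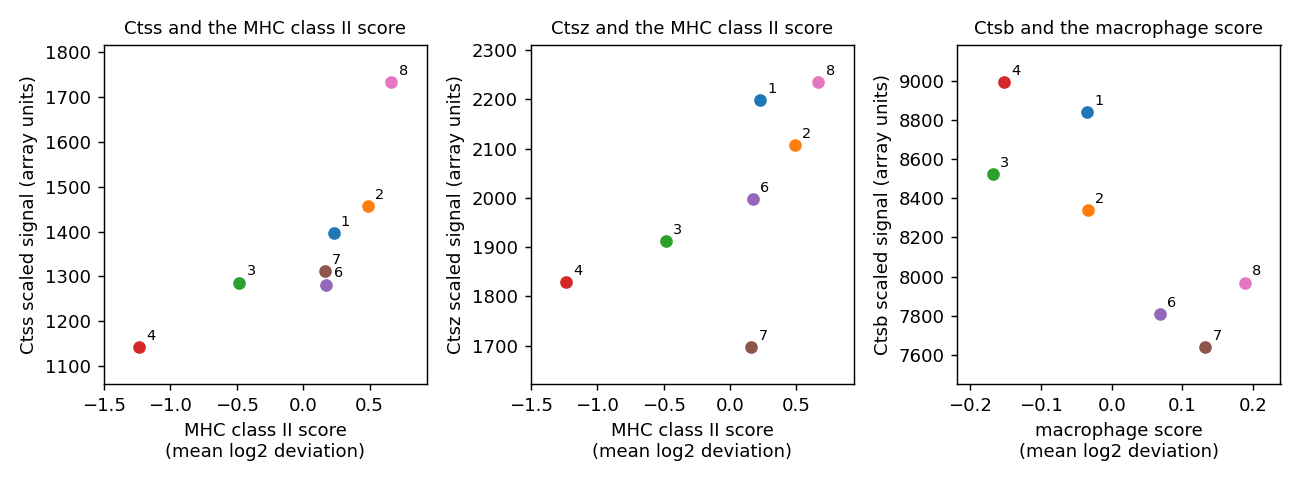
Scaled signal (array units) of Ctss and Ctsz against the MHC class II score, and of Ctsb against the macrophage score, with each score a mean log2 deviation. Each point is 1 array, numbered by replicate. Ctss is lowest on replicate 4 (1143) and highest on replicate 8 (1734), as the class II score is, and Ctsb is lower on replicates 6 to 8 (7640 to 7969) than on replicates 1 to 4 (8340 to 8995).

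The arrays were split into 2 sets at the widest gap, 0.398, in the mean log2 signal of bacterial RNAs added as controls. Such a cut always gives 2 sets. Replicates 6 to 8 had a signal of 10.20 to 10.24, and replicates 1 to 4 had 10.64 to 10.97. Ctsb lay between 7640 and 7969 on replicates 6 to 8, against 8340 to 8995 on replicates 1 to 4. Ctsh lay between 2983 and 3275 on replicates 6 to 8, against 3353 to 3705 on replicates 1 to 4. The sets did not overlap in these 2 of the 10 genes, where 7.34% of tested genes showed no overlap. In a limma fit with the set as a term, the log2 difference of replicates 6 to 8 from replicates 1 to 4 was -0.15 for Ctsb (adjusted p = 0.73), -0.15 for Ctsh (adjusted p = 0.771) and -0.24 for Ctsl (adjusted p = 0.706). That limma fit called 0 of 4481 genes (0%), with 309 at an unadjusted p under 0.05, and among the 10 genes only Ctsl had one, at 0.038. The SD of Ctsb within sets was 0.04, against 0.09 over all arrays. What the 2 sets were is not given in the labels, and their part in these values beyond this was not tested.

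**Figure D5:**
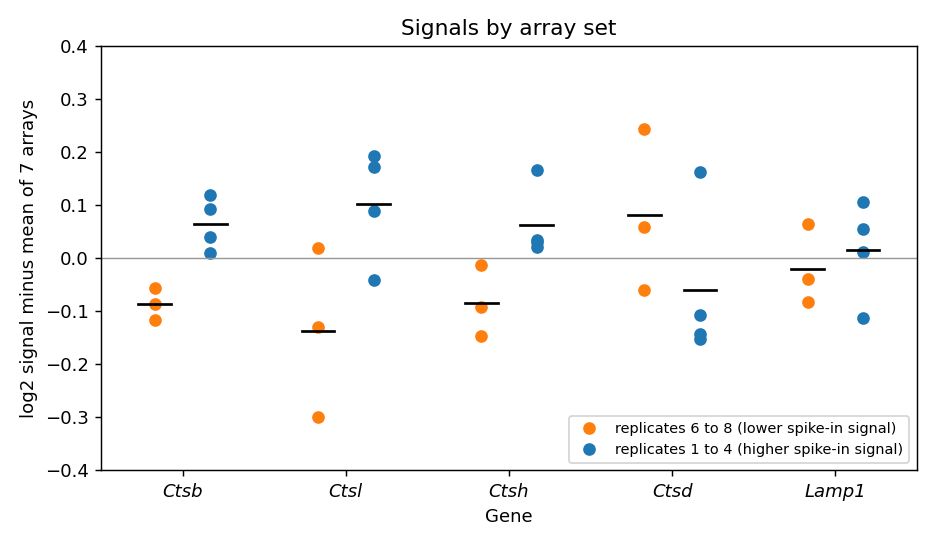
log2 signal minus the mean of 7 arrays for 5 genes, with replicates 6 to 8 (orange) left of replicates 1 to 4 (blue); black lines are set means. The sets do not overlap for Ctsb and Ctsh, Ctsl is lower on replicates 6 to 8 with overlap, and Ctsd and Lamp1 overlap widely.

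None of the genes passed the adjusted threshold for a relation with the RNA quality controls. With 5040 pairings 1 gene alone could not pass it, so this does not show freedom from effects of RNA quality. These controls compare the 3' with the 5' end of a transcript, and the ratio ranged from 0.788 to 0.907 for Gapdh and from 1.31 to 1.78 for beta-actin. Over 20 relations the unadjusted exact permutation p was at least 0.102, the value for Ctsh with the beta-actin ratio (r = -0.669, adjusted p 0.884), which was -0.097 without the 2 farthest arrays and -0.34 with array-set means removed. Its rho was -0.429 (exact p = 0.354). After adjustment 0 of 4481 genes (0%) passed with either ratio, and 0 of the 10 genes had an unadjusted p under 0.05, against 305 genes (6.81%) for Gapdh and 243 (5.42%) for beta-actin. Of the 20 relations, 2 had an unadjusted p under 0.05 without replicate 8, and 1 did without replicate 3, without replicate 6 and with quantile normalization.

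Other parts of the lysosomal system were measured on the same arrays: 85 genes were listed, 60 were on the array and 47 were tested. Their median log2 SD was 0.17, 29 of the 47 lay under the median of all tested genes, and 0 had an unadjusted p under 0.05 in the limma-based test of spread. The vacuolar ATPase, the pump that acidifies the lysosome, had all 13 measured subunits tested and a median log2 SD of 0.12, with 10 of 13 under the overall median. Its subunits Atp6v0d1, Atp6v1a and Atp6v0b had 2013 ± 182, 1430 ± 97.9 and 1421 ± 117. The most variable subunit was Atp6v0a1, from 387 on replicate 4 to 754 on replicate 7, followed by Atp6ap2 at 375 ± 59.3.

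Acid hydrolases, enzymes that digest material such as glycans, lipids and peptides, had 15 of 19 measured genes tested and a median log2 SD of 0.20. Gaa, the acid alpha-glucosidase that degrades glycogen, had 2831 ± 307, the sphingomyelinase Smpd1 had 2614 ± 271, and the peptidase Tpp1 had 2324 ± 202. Neu1, the neuraminidase that works with Ctsa, was dim, at a mean of 222, and had the largest log2 SD of these, 0.50 (unadjusted p = 0.112, adjusted p = 0.947 in the limma-based test). Ids, the iduronate sulfatase, came next at 268 ± 48.5 and a log2 SD of 0.27. Of the activators and membrane proteins, Laptm4a had 5041 ± 452, and Psap, the precursor of the saposins, had 4184 ± 519. Gm2a, the activator of ganglioside breakdown, ranged from 1031 on replicate 1 to 1850.0 on replicate 6. The cholesterol transporter Npc1 had 1816 ± 232.

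The cathepsin inhibitor cystatin C (Cst3) varied little, at 4667 ± 209 with a log2 SD of 0.07, and Cstb, an inhibitor inside cells, had 2497 ± 264. Serpinb6a varied more, at 286 ± 80.2 with a log2 SD of 0.34. Of cathepsins outside the 10, Ctse and Ctsf were tested, at 1929 ± 223 and 643 ± 72.6. Ctsg, of neutrophils, and Ctsw, of cytotoxic lymphocytes, stayed below the floor on all arrays, and Ctsk, of osteoclasts, had 88.7 ± 52.4. Adaptor subunits that sort cargo toward the lysosome included Ap1m1 at 1644 ± 241, Ap1b1 at 1537 ± 179 and Ap1s1 at 1422 ± 222. The sorting adaptor Gga2, at 466 ± 84.7, had the largest log2 SD among the tested genes of that list, 0.28. Tfeb and Mitf, transcription factors of lysosomal genes, were dim, at 40.8 ± 21.1 and 66.8 ± 22.5, and were not tested.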

How the data were processed

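Total liver RNA of 7 samples was measured on 1-colour arrays scanned on a Hewlett-Packard GeneArray instrument, per the labels. The deposited values are linear intensities, 1 per probe set. No source used here gives the authors' software or scaling target. On every array the mean after trimming 2% at each end was 500.36 to 500.39, so the authors had scaled them. The number of arrays limits the precision. The members and gene lists were chosen with earlier results of these data known.

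Of 12488 probe sets, 66 were controls, 10833 others had 1 gene symbol, 396 several and 1193 none. Identifiers of all 10 genes matched the RefSeq table. After scaling to 1 trimmed mean, a floor of 0.1 of it (50.04) was set and log2 taken. The probe set with the highest mean represented a gene, and the 4481 of 8251 genes whose mean reached 0.4 of the trimmed mean (200.1) were tested. An intercept-only limma 3.58.1 fit in R 4.3.3, with a robust, trended prior (5.61 degrees of freedom), gave the test of spread, called at an adjusted p under 0.05 and tested on simulated data. Correlations used all 5040 pairings, two-sided, in Python 3.11.15 with numpy 2.4.6, pandas 2.3.3 and scipy 1.17.1, and plots used matplotlib 3.10.9. Their p-values were adjusted over all tested genes, the larger of both for a pair, and counts also over the family planned.

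Genes outside the 10 were named by rule: per list of lysosomal, MHC class II and macrophage genes, up to 3 with the highest mean and up to 2 with the largest log2 SD among those tested, and the 5 with the highest mean r with the 10. Adgre1, Itgam, Marco, Ctsg, Ctsw, Ctsk, Tfeb, Mitf and Acta1 were named after their values were seen, as were the counts of repeated CACGTG. Alternatives were other scaling, floors, filters, averaged probe sets, other priors, leaving out each array and, chosen after seeing the data, the array set as a term.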

Additional observations from a re-analysis of the deposited data

How the results depend on the processing

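Over 20 alternatives the test of spread called no cathepsin or Lamp gene, and the lowest adjusted p of any of them lay between 0.222 and 0.99. This does not show stability, because on simulated data the test missed moderate excesses of spread. Over all genes it called 1 gene, Acta1, when an offset replaced the floor (adjusted p = 0.032). Leaving out each array in turn gave 0 to 1 called genes, the 1 being Acta1 without replicate 4 or without replicate 6 (limma-based adjusted p = 0.029 and 0.036). The log2 SD moved by more than 1.5 times in 3 of 200 combinations of gene and alternative: Ctsc with averaged probe sets (0.13, against 0.29), Ctss without replicate 8 (0.12, against 0.19) and Ctsb with the array set as a term (0.04, against 0.09). The first averages in 2 dim probe sets, and the cause of the others was not tested. The counts of relations past the adjusted threshold over their families were 0 under every alternative run. The priors and the array-set term do not enter them. When an array was left out, 1 pair alone could not pass over the 45 pairs, so those runs do not show stability for pairs. At an unadjusted p under 0.05 those counts ranged from 0 to 5 pairs, 0 to 2 relations with the scores and 0 to 2 with the quality ratios. The 4 relations with an unadjusted p under 0.05 kept their sign under 17 alternatives each. Ctss with the class II score stayed under 0.05 in 14, between 0.767 and 0.902. Ctsa with Lamp2 did in 15, between 0.422 and 0.957, Ctsb with Ctsl in 13, between 0.561 and 0.887, and Ctsb with the macrophage score in 10, between -0.868 and -0.446. Without replicate 1, Ctsa with Lamp2 was 0.682 (exact permutation p = 0.192) and Ctsb with Ctsl 0.782 (exact p = 0.065). Ctss with the class II score had exact p of 0.064, 0.053 and 0.093 without replicates 2, 3 and 4. No paired analysis was possible because all samples belong to 1 group.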
